A study of Mus musculus with 111 samples.

Results

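RNA-seq of the mouse tuberomammillary nucleus (TMN) was compared between animals that expressed a mutant histone and animals with control viruses at zeitgeber times ZT12 and ZT16, the first hours of the dark phase, in which mice are awake (ZT0 is lights on). The libraries were taken by their labelled virus and ZT alone, which gave 14 H3.3(Q5A) libraries and 27 control libraries, together 41 of the 111 libraries of the virus experiment. Each library came from 1 adult C57BL/6 mouse whose TMN had been injected on both sides, weeks before the tissue was taken, with an adeno-associated virus of 1 of 3 kinds, and the study used animals of both sexes. The GFP virus was the empty vector, the H3.3 virus carried wild-type H3.3, and the Q5A virus carried tagged H3.3 in which glutamine 5 is replaced by alanine. All 3 vectors also expressed GFP, by whose light the infected tissue was cut from brain sections, so a library can also hold cells that the virus did not enter and cells of the tissue next to the nucleus. The groups at ZT12 and ZT16 held 6 and 6 GFP, 7 and 8 H3.3, and 7 and 7 Q5A libraries. The labels also place each library in 1 of 3 cohorts: 9, 3 and 2 of the Q5A libraries and 17, 7 and 3 of the controls came from cohorts 1, 2 and 3.

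The TMN lies in the posterior hypothalamus and contains the neurons that supply the brain with histamine, which fire during waking and keep the cortex aroused through histamine receptors. Histamine, serotonin and dopamine can be joined to glutamine 5 of histone H3 by transglutaminase 2, next to lysine 4, whose methylation marks active promoters. H3.3 is the histone that neurons, which no longer divide, keep building into chromatin, and an H3.3 with alanine at position 5 cannot accept a monoamine there. The comparison asks which RNAs differed when such a histone was present while the animals were awake, with GFP and H3.3 pooled as controls, as in the design of the study.

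Total counts over gene rows ran from 673306 to 3375352 in Q5A (median 1419620) and from 1059190 to 2705042 in controls (median 1494502), and no difference beyond the spread between libraries was detected in the total count, the share of reads in gene rows, the share of the top 10 genes or the number of genes detected (2-sided permutation test within ZT over 100000 resamples, p from 0.557 to 0.974, adjusted p = 0.974 for each of the 4). The counting option kept reads on the gene's own strand, whereas the first read of the kit runs against the transcript, and between 3.49% and 5.63% of uniquely placed reads fell in gene rows. Of 9590 tested genes with a position in the annotation, 4017 (41.9%) have exons that overlap exons of a gene on the other strand, and their rows cannot be told apart from that gene. Such overlaps are given beside many of the genes below, and a gene given without one can have one too. Hdc, the gene of histidine decarboxylase and the defining marker of the nucleus, was at 0 reads in 3 Q5A and 1 control libraries and reached 30 and 53 reads. Ddx3y, a Y-linked RNA helicase, gave a log2 difference of 0.25 ± 0.28 between Q5A and controls (SE, derived from the F test as given under processing). Between H3.3 and GFP it gave -1.22 ± 0.30 (edgeR, unadjusted p = 0.000179). Q5A gave 0.96 ± 0.29 against H3.3 (edgeR, unadjusted p = 0.00182) and -0.27 ± 0.30 against GFP. The sex of the single animals is not given in the sources used here.

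Across all 41 libraries no gene passed the test between Q5A and controls. With ZT as a covariate, 0 of 12106 tested genes (0%) were called at an adjusted p under 0.01, and 0 at 0.05, by the edgeR quasi-likelihood test, and the lowest adjusted p was 0.9997. At an unadjusted p under 0.05 there were 470 genes (3.88%), 231 higher and 239 lower in Q5A. DESeq2 called 0 genes as well and had 489 at an unadjusted p under 0.05. No gene separated the 14 Q5A libraries from the 27 controls without overlap. The count stayed at 0 when each of the 41 libraries was left out in turn. Without the filter on low counts 1 row was called, Platr9, described with the pituitary genes below.

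Among the genes with the smallest unadjusted p, those higher in Q5A included neuronal transporters, a growth factor receptor and genes of glial membranes. Slc6a3 encodes the dopamine transporter (chromosome 13, 73536747 to 73578672, plus strand, GRCm38) and had a log2 difference of 2.36 ± 0.64 (SE, 14 against 27 libraries, unadjusted p = 0.00055). Ret, a receptor of the glial cell line-derived neurotrophic factor family, gave 1.24 ± 0.36 (unadjusted p = 0.00109). Slc17a7, a vesicular glutamate transporter, gave 1.22 ± 0.33 (unadjusted p = 0.000552), and Slc10a4, a vesicle protein of monoamine and cholinergic neurons, 1.22 ± 0.38 (unadjusted p = 0.00215). Aqp4, the astrocyte water channel, was higher by 0.89 ± 0.26 and Cldn11, a tight junction protein of myelin, by 0.72 ± 0.21. Enpp2, which makes lysophosphatidic acid, gave 0.76 ± 0.23 and shares exons with Gm26684 on the other strand. Lpcat1, a phospholipid acyltransferase that lies next to Slc6a3 on the same strand (chromosome 13, 73467197 to 73516422), gave 1.02 ± 0.28. Pter gave 0.84 ± 0.24 and a clone-named row 1.73 ± 0.43. None of these 10 passed the adjusted threshold, and their Q5A and control libraries overlapped in level. Slc17a7, for example, ran from 1.05 to 48.7 CPM (counts scaled to the library total after edgeR's TMM factor, or to the plain total for summed lists and for genes below the filter on low counts; median 5.22) in Q5A and from 0 to 14.4 (median 2.02) in controls.

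Those lower in Q5A included chromatin and transcription factors. Dot1l, the methyltransferase of histone H3 lysine 79 (chromosome 10, 80755206 to 80795461, plus strand), ran from 34.0 to 53.2 CPM (median 43.6) in Q5A and from 38.9 to 82.9 CPM (median 51.3) in controls, a log2 difference of -0.32 ± 0.10 (unadjusted p = 0.00248). Of the 27 control libraries 12 lay above the highest Q5A library, and the other 15 overlapped with Q5A. Taf6, a subunit of the general transcription factor TFIID, gave -0.37 ± 0.12 and Ercc2, the helicase of TFIIH, -0.47 ± 0.16. Gga2, an adaptor of the trans-Golgi network, gave -0.50 ± 0.15. Ttc14, Zkscan17 and Fhad1 had log2 differences of -0.60, -0.48 and -0.62, and the rows RP23-4F16.3 and RP23-76M24.3 of -1.06 and -1.13. Apart from Dot1l and the clone-named rows, each of these overlaps a gene on the other strand: Ap4m1 for Taf6, Klc3 and Gm26852 for Ercc2, Gm44987 for Gga2, Ccdc39 for Ttc14, 4933439C10Rik for Zkscan17 and Fhad1os2 for Fhad1.

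Slc6a3 was not spread evenly over the Q5A libraries. In cohort 1, 7 of the 9 Q5A libraries held 20 reads or more, and the other 2, ZT12 replicates 2 and 3, were at 0; the 9 ran from 0 to 105 CPM with a median of 28.6. The 17 control libraries of cohort 1 ran from 0 to 9.57 CPM, and 12 of them were at 0 reads. In cohorts 2 and 3 the 5 Q5A libraries were at 144, 1.79, 1.27, 0.605 and 0.316 CPM, and the 10 controls ran from 0 to 91.7 CPM with a median of 0.676 and 3 libraries of 20 reads or more. High libraries were therefore present under all 3 viruses, but within cohort 1 they lay in Q5A alone. The control libraries at 38.6 CPM or more were 2 of cohort 2, GFP ZT16 replicate 1 and H3.3 ZT16 replicate 2, and 1 of cohort 3, H3.3 ZT12 replicate 1.

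**Figure D1:**
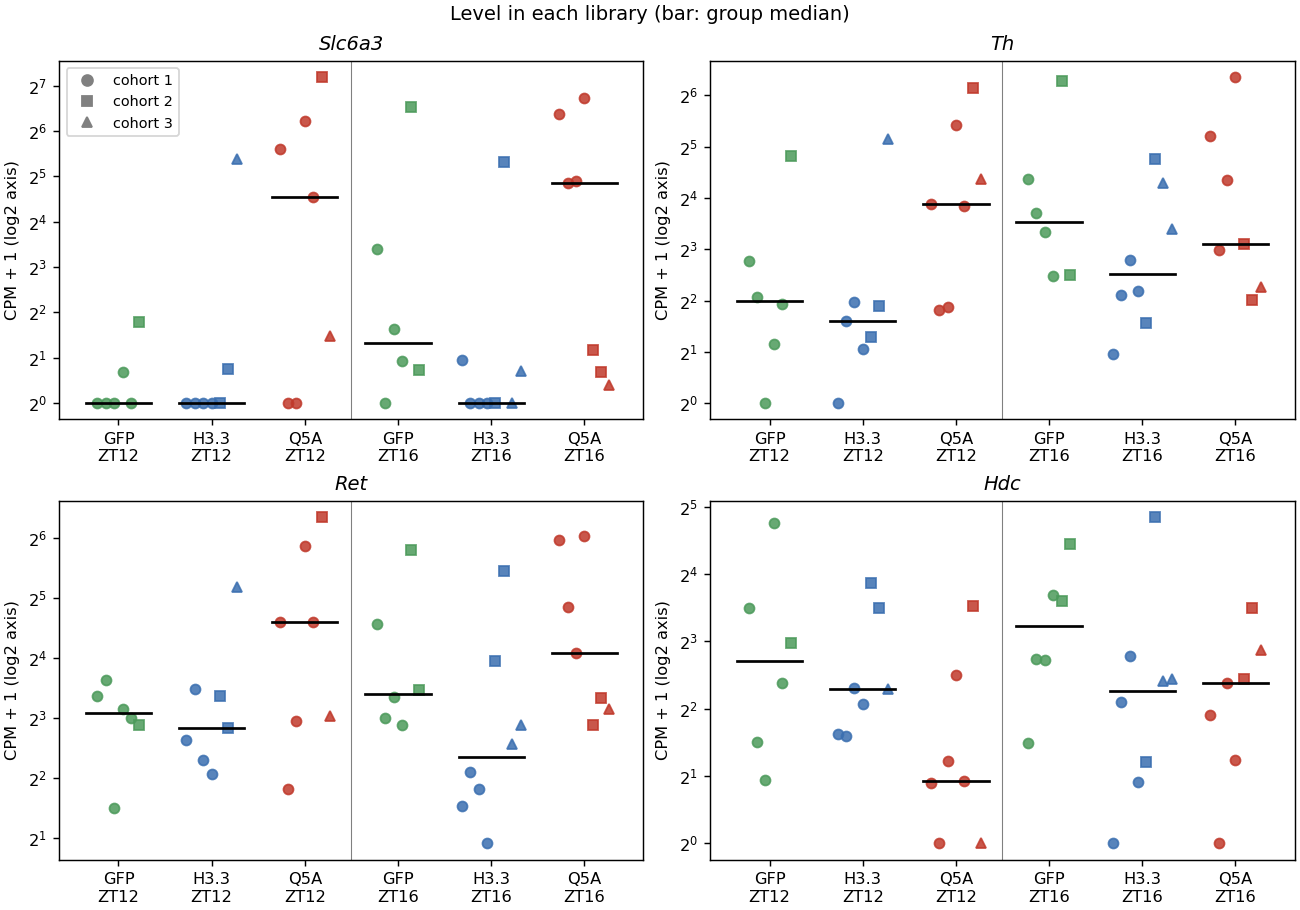
Level of Slc6a3, Th, Ret and Hdc in each of the 41 libraries by virus and ZT, as CPM plus 1 on a log2 axis, with 1 point per library, the cohort given by its shape and the group median by a bar. Of 9 cohort 1 Q5A libraries 7 held at least 20 reads of Slc6a3, and no cohort 1 control did.

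Genes that mark dopamine neurons of the ventral midbrain, which lies next to the TMN, lay on the same side as Slc6a3. Th, tyrosine hydroxylase, which makes the precursor of dopamine (chromosome 7, 142892752 to 142931128, minus strand), ran from 2.54 to 80.5 CPM (median 13.8) in the Q5A libraries of cohort 1 and from 0 to 19.7 (median 3.19) in its controls. Ret ran from 2.54 to 64.1 (median 23.2) against 0.887 to 22.7 (median 6.37). Aldh1a1, a retinal and aldehyde dehydrogenase of these neurons, ran from 0.848 to 105.7 CPM against 0 to 28.1 (median 3.36). For each of the 3, the upper Q5A libraries exceeded every control of cohort 1 and the lower ones lay within the control range. Over all 41 libraries, in a list of 24 genes of dopamine neurons that was drawn up after Slc6a3 had been seen, 16 were tested, all 16 were higher in Q5A, 7 had an unadjusted p under 0.05 (3.88% of all genes did) and the median log2 difference was 0.62, against -0.01 over all genes. The 7 were Slc6a3, Aldh1a1 (1.32 ± 0.46), Ret, Slc10a4, Ddc (1.06 ± 0.38), Th (1.05 ± 0.44) and Kcnj6 (0.66 ± 0.20). The exons of Kcnj6 overlap Gm41505. Since the list was drawn up after Slc6a3 had been seen and holds Slc6a3, these counts are no independent evidence. In cohorts 2 and 3 the 7 gave -0.62 (Slc6a3), -0.41 (Aldh1a1), -0.04 (Ret), -0.02 (Slc10a4), 0.36 (Ddc), -0.34 (Th) and 0.36 (Kcnj6). Slc18a2, the vesicular monoamine transporter that histamine neurons also use, gave 0.10 ± 0.18, with exons that overlap Gm29261. The summed level of the list ran from 140.8 to 1213 CPM (median 295.1) in Q5A and from 117.2 to 647 CPM (median 185.8) in controls. Chrna6, a nicotinic receptor subunit of the same neurons, was below the filter, at 0 to 59 reads (median 4) in Q5A and 0 to 14 reads (median 0) in controls. In tissue pieces, more cells of a type and more RNA per cell cannot be told apart, and the part of the tissue taken with the nucleus in these differences was not tested.

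The other marker genes of tissue near the nucleus did not all lie on that side. Of 15 tested members of the list for neighbouring regions, 8 were higher and 7 lower, and at an unadjusted p under 0.05 there were 3 higher (Slc6a3, Th and Ddc) and 1 lower, Rgs9 (-0.80 ± 0.32), a signalling regulator of striatal neurons. The summed level of that list ran from 86.9 to 697.6 CPM (median 162.3) in Q5A and from 82.6 to 488.5 CPM (median 136.7) in controls. Ppp1r1b, a striatal gene as well, gave -0.94 ± 0.49. Foxb1, a gene of the mammillary body, gave -0.06 ± 0.28.

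The promoters of 3 of these genes and of Hdc are shown since all 4 belong to monoamine synthesis or uptake, while Hdc lay on the other side of the comparison from the first 3. They are RefSeq windows of GRCm38.p6 around the annotated start, written 5′ to 3′ on the gene's strand, for chr13:73536497-73536796 (plus), chr7:142899946-142900245 (minus), chr11:11898095-11898394 (minus) and chr2:126618629-126618928 (minus). Capitals mark matches to 2 motifs searched on both strands: the E-box CACGTG, which clock factors can bind, and AAGGTCA, a half-site of orphan nuclear receptors such as Nr4a2.
Slc6a3: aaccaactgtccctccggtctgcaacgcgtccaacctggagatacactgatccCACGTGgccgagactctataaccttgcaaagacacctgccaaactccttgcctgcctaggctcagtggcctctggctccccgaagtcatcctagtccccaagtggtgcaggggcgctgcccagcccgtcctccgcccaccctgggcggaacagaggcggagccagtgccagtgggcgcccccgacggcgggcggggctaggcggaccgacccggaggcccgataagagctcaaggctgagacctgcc
Th: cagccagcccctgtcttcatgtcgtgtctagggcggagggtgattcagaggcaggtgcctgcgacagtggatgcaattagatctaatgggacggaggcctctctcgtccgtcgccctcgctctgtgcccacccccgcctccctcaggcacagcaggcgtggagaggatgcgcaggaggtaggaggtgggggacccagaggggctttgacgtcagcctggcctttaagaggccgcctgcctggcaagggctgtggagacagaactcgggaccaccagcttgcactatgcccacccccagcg
Ddc: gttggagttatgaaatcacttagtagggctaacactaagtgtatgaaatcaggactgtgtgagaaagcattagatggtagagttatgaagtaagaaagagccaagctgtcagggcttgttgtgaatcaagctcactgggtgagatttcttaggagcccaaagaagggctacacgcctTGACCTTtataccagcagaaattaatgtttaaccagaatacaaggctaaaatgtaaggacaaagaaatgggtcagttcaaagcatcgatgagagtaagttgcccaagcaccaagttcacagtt
Hdc: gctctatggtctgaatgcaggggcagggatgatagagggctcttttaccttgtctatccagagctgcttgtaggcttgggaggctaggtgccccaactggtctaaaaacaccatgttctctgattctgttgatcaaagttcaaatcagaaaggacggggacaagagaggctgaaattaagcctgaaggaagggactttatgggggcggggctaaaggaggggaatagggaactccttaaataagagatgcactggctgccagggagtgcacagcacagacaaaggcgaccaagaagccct
The E-box began 197 bases before the start of Slc6a3 and the half-site, here read on the other strand, 73 bases before that of Ddc. The windows of Th and Hdc hold neither set of letters. Among 32851 RefSeq promoters, 7.15% hold the E-box and 4.72% the half-site, and a match is given as a description of the letters, not as a site. RefSeq lists 2 starts for Ddc, and the window of the other one holds neither motif.

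Within cohort 1 alone, Q5A and controls differed in 13 genes. The comparison of its 9 Q5A with its 17 control libraries called 13 of 10930 tested genes at an adjusted p under 0.01 (0.119%), 12 higher and 1 lower, and 102 genes at 0.05. At an unadjusted p under 0.05 there were 1432 (13.1%). The 13 are given because they were called there, so their sizes in cohort 1 were chosen by the test. Slc6a3 rose by a log2 difference of 4.19 ± 0.46 (SE, edgeR adjusted p = 1.738e-06), Th by 2.01 ± 0.37 and Ret by 1.91 ± 0.34 (both adjusted p = 0.00604). Cplx1, complexin 1, which clamps and triggers synaptic vesicle fusion, rose by 1.19 ± 0.21, from a median of 88.0 CPM in controls to 196.4 CPM in Q5A. Slc6a3 and Lig3 were called in each of 32 alternative fits of cohort 1, whereas the other 11 were called in 12 to 27 of them. DESeq2 called 59 genes, 12 of them shared. Leaving out 1 library moved the count between 2 (without Q5A ZT12 cohort 1 replicate 4) and 98 (without GFP ZT16 cohort 1 replicate 1), and by more than 1.5 times for 16 of 26 libraries.

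Lig3, DNA ligase 3 (chromosome 11, 82781108 to 82804274, plus strand), had the lowest adjusted p of the 13 after Slc6a3. Its Q5A libraries of cohort 1 ran from 53.8 to 111 CPM (median 92.0) and the controls from 24.6 to 77.2 (median 42.6), a rise of 0.99 ± 0.15 on the log2 scale (adjusted p = 0.0004649). Only Q5A ZT12 replicate 3 and Q5A ZT16 replicate 2 of that cohort lay within the control range. Its exons overlap Rffl, a ubiquitin ligase gene, on the other strand, and reads of the pair cannot be told apart. Ccdc152, which overlaps Selenop, the selenium carrier of plasma, rose by 0.58 ± 0.11, and Adamts4, an aggrecan-cleaving protease, whose row also overlaps the other strand, by 0.95 ± 0.18. The rest were clone-named rows with no position here. RP24-388I23.2 rose by 3.62 ± 0.67, RP23-234P12.1 by 1.74 ± 0.32 and WI1-1981I9.3 by 0.71 ± 0.14, and 2 others by 2.45 ± 0.43 and 0.77 ± 0.14, whereas RP23-456B9.21 fell by 1.64 on the log2 scale (SE 0.31).

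The 5 Q5A and 10 control libraries of cohorts 2 and 3 gave no called gene among the 13. Of the 13 genes, 1 lay in the same direction there, RP23-456B9.21, and 0 had an unadjusted p under 0.05 in that direction; over all genes 42.8% of 10903 had the same sign in both sets. Slc6a3 gave -0.62 ± 0.92 in cohorts 2 and 3, Th -0.34 ± 0.68, Ret -0.04 ± 0.38, Lig3 -0.40 ± 0.33 and Cplx1 -0.40 ± 0.38. Lig3 lay between 17.9 and 21.2 CPM in all 5 of these Q5A libraries, below each Q5A library of cohort 1, and between 10.5 and 60.4 in the 10 controls. The difference between the effect in cohort 1 and that in cohorts 2 and 3 was tested itself: 0 of 12106 genes were called (edgeR, lowest adjusted p = 0.385, 899 genes at an unadjusted p under 0.05), with 1.34 ± 0.33 for Lig3 and 3.67 ± 1.19 for Slc6a3. DESeq2 called 0 as well (958 at an unadjusted p under 0.05), and without the filter on low counts edgeR called 103.

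**Figure D2:**
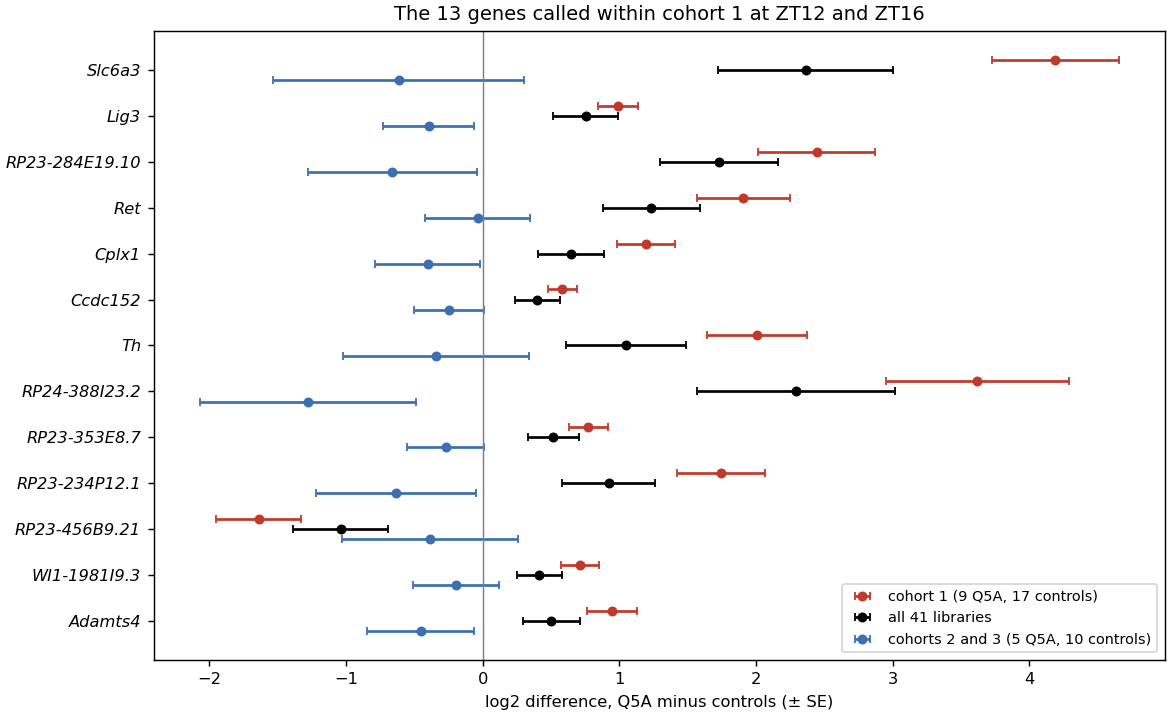
Log2 difference between Q5A and controls (± SE) of the 13 genes called within cohort 1, in cohort 1 (red), in all 41 libraries (black) and in cohorts 2 and 3 (blue). In cohorts 2 and 3, 12 of the 13 lie on the other side of 0 from cohort 1, with errors that reach up to 0.92.

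Genes of oligodendrocytes, which wrap axons in myelin, also lay mostly on the higher side in Q5A. Of 13 listed genes all were tested, 12 were higher in Q5A and 7 had an unadjusted p under 0.05, all higher (3.88% of all genes in either direction), with a median log2 difference of 0.38. Mbp, a main protein gene of myelin, gave 0.55 ± 0.24, Mobp and Mag, further myelin proteins, 0.54 ± 0.24 and 0.51 ± 0.24, and Sox10, the transcription factor of the lineage, 0.38 ± 0.17. Cnp and Mog, which are myelin genes too, gave 0.02 ± 0.10 and 0.02 ± 0.11, and Cnp overlaps Dnajc7. The progenitor genes Pdgfra and Cspg4 gave 0.19 ± 0.19 and -0.01 ± 0.14. The summed level of the list ran from 1380 to 6403 CPM (median 2476) in Q5A and from 1165 to 5040 CPM (median 1763) in controls, so that the ranges overlapped over most of their length. Within cohort 1 the median log2 difference was 0.79, with 8 of 13 higher at an unadjusted p under 0.05 and 0 called. Mbp ran there from 677.3 to 2715 CPM (median 1190) in Q5A and from 321.7 to 1768 (median 514.1) in controls.

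Markers of other cell classes were read in the same way. Among 10 astrocyte genes Gfap (0.88 ± 0.33) and Aqp4 had an unadjusted p under 0.05, and the others lay between -0.10 (Slc1a3) and 0.37 (S100b); their summed level ran from 863.5 to 2883 CPM in Q5A and from 594.4 to 2867 in controls. Gfap, the filament protein of reactive astrocytes, ran from 16.8 to 326.4 CPM (median 37.6) in Q5A and from 6.61 to 177 (median 28.3) in controls, with the 2 highest libraries in Q5A and the next 3 in controls. Of 9 tested microglial genes Tmem119 gave 0.52 ± 0.23 (unadjusted p = 0.032) and the median was 0.05. Of 10 neuronal genes Snap25, a synaptic fusion protein, gave 0.39 ± 0.15 (unadjusted p = 0.0119) and the median was 0.10. The 9 tested vascular, ependymal and blood genes had a median of 0.04, and the 7 interferon genes, H2-D1 (-0.32 ± 0.31) among them, of -0.14; neither list held a gene at an unadjusted p under 0.05. Of 16 lymphocyte genes only 4 antibody genes were tested, with Igkc at 0.68 ± 0.53 over 41 libraries, and their median of 0.67 was the highest of all lists. In cohort 1 the 3 that could be tested were higher at an unadjusted p under 0.05 (median log2 difference 2.03) and in cohorts 2 and 3 they gave -0.47 (Igkc), -0.86 (Ighg2c) and 0.50 (Ighg2b), each short of that p. The T cell genes Cd3e, Cd4 and Cd8a lay below the filter, and the 15 mitochondrially encoded genes held no counts. These lists are given as the cell makeup beside the comparison, and their part in it was not tested.

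**Figure D3:**
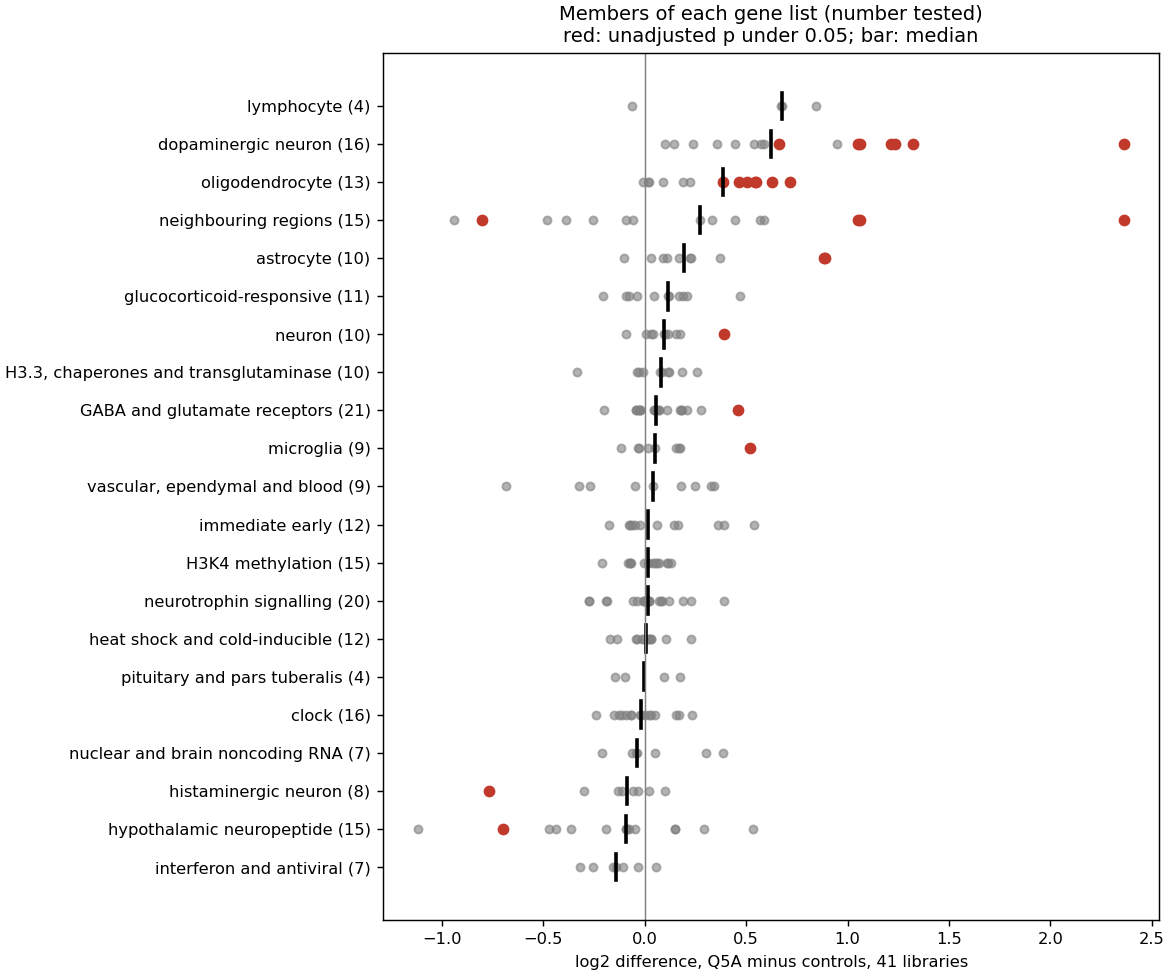
Log2 difference between Q5A and controls over 41 libraries for each tested member of 21 gene lists, 1 point per gene, with the number tested in brackets, the list median as a bar and genes of an unadjusted p under 0.05 in red. The dopamine neuron list was drawn up after values were seen, and its median of 0.62, that of 0.38 for oligodendrocyte genes and the highest, 0.67 for 4 lymphocyte genes, exceed the median of -0.01 over all genes.

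Genes of histamine neurons did not pass the test. Hdc ran from 0 to 10.5 CPM (median 2.05) in the 14 Q5A libraries and from 0 to 27.6 CPM (median 4.31) in the 27 controls, a log2 difference of -0.77 ± 0.36 (unadjusted p = 0.0376, adjusted p = 0.9997). The ranges overlapped throughout, and the 6 highest libraries were controls. In cohort 1 the Q5A libraries held 0 to 6 reads (median 1) and the controls 0 to 43 (median 4), too few for the filter at these ZT. In the edgeR fit of cohort 1 over all ZT, Hdc passed the filter. Q5A gave -1.04 ± 0.38 at ZT12 and ZT16 (adjusted p = 0.149) and 0.83 ± 0.32 at the other ZT (adjusted p = 0.156). The contrast of the 2 was -1.87 ± 0.50 (adjusted p = 0.0132), short of the threshold. Over the 41 libraries the difference was -1.002 ± 0.41 against GFP (edgeR, unadjusted p = 0.0192) and -0.54 ± 0.40 against H3.3 (unadjusted p = 0.184). Of 8 tested genes of these neurons 1, Hdc, had an unadjusted p under 0.05, and the median was -0.09. Gad1, Gad2 and Slc32a1, the genes for making and packing GABA, which histamine neurons also release, gave -0.06 ± 0.19, -0.13 ± 0.22 and -0.03 ± 0.16; Slc32a1 overlaps Gm14205. Hrh3, the autoreceptor, gave -0.30 ± 0.19 and Maob, which breaks down a histamine metabolite, 0.02 ± 0.32. Hrh1 and Aldh7a1, of the list for histamine breakdown and receptors, gave 0.08 and 0.01, and Hnmt was below the filter.

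No clock gene passed the test between Q5A and controls at these times. The molecular clock is a feedback loop in which CLOCK and its partner BMAL1 (Arntl) switch on the Per and Cry genes, whose proteins then hold them back, while Nr1d1 and Nr1d2 repress Arntl. Of 20 listed genes 16 were tested and 0 had an unadjusted p under 0.05 (edgeR; the DESeq2 count over all genes was 489, against 470), with a median of -0.02 and a range from -0.24 (Per2) to 0.23 (Bhlhe40). Per1 gave -0.15 ± 0.16, Per2 -0.24 ± 0.20, Cry1 -0.07 ± 0.24, Arntl -0.09 ± 0.20, Clock 0.05 ± 0.11 and Dbp, a direct output of the loop, 0.15 ± 0.12. Nr1d1 gave -0.13 ± 0.12, in a row that overlaps Thra, and 8 of the 16 tested genes overlap a gene on the other strand. Between ZT12 and ZT16 Clock was lower at ZT16 in controls (-0.40 ± 0.14, unadjusted p = 0.00501) and in Q5A (-0.44 ± 0.19, unadjusted p = 0.0245), and Dbp was lower by -0.35 ± 0.15 and -0.36 ± 0.21. Cry1 differed between ZT16 and ZT12 by 0.07 ± 0.27 in controls and by -0.91 ± 0.36 in Q5A, a difference of -0.98 ± 0.45 (interaction, unadjusted p = 0.0344, adjusted p = 0.9996). These 3 were picked out after their values had been seen.

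**Figure D4:**
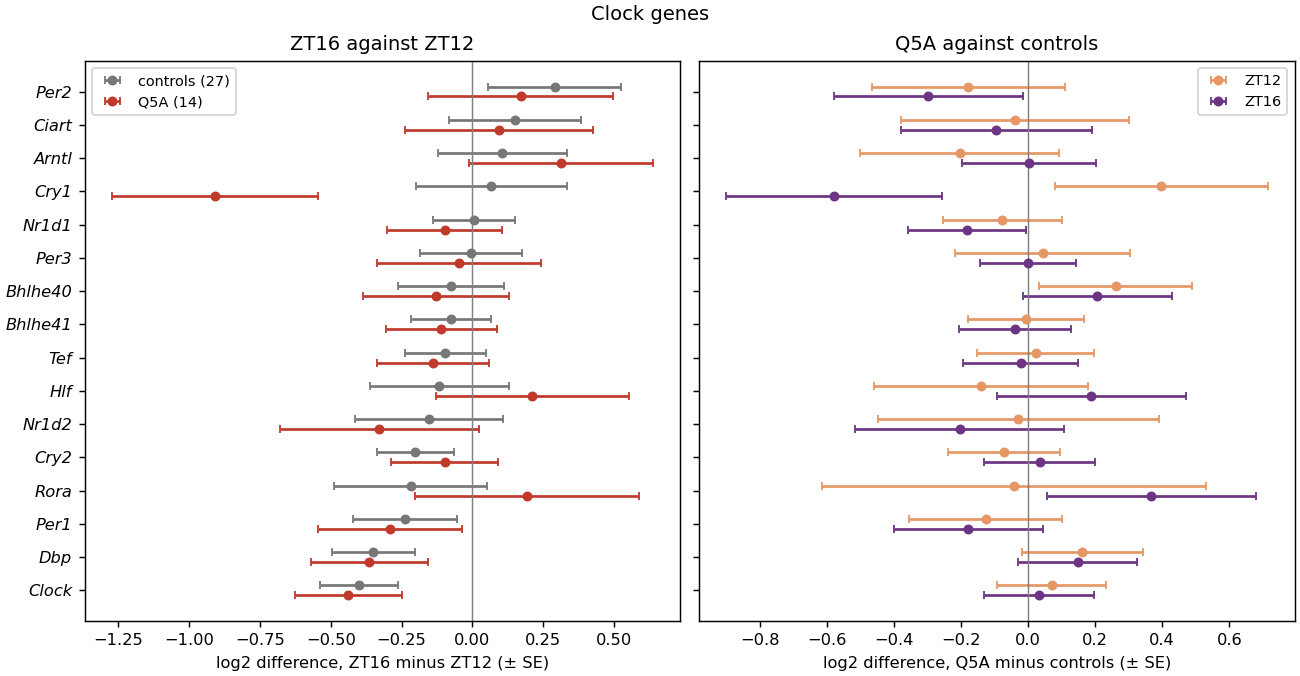
Clock genes: log2 difference between ZT16 and ZT12 (± SE) in 27 controls and 14 Q5A libraries (left), and between Q5A and controls (± SE) at ZT12 and at ZT16 (right). Clock lies at -0.40 in controls and -0.44 in Q5A on the left and Cry1 at 0.07 and -0.91; on the right no gene passed the adjusted threshold.

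Among activity-dependent and stress genes none passed either. Of 25 immediate early genes 12 reached the filter, 6 higher and 6 lower, and 0 had an unadjusted p under 0.05; Fos, Egr2 and Npas4 were among those below the filter. Egr1 gave 0.16 ± 0.30, Arc -0.07 ± 0.26, Junb (overlapping Prdx2) -0.06 ± 0.12, Nr4a2 0.54 ± 0.31 and Bdnf 0.39 ± 0.22. The 12 tested heat shock and cold-inducible genes had a median of 0.01 and the 11 glucocorticoid-responsive genes of 0.11, with 0 in each at an unadjusted p under 0.05; Sgk1, a kinase that corticosterone induces, gave 0.47 ± 0.23 (unadjusted p = 0.0509). From ZT12 to ZT16 Hspa1a, an inducible heat shock protein, was higher by 0.86 ± 0.27 in controls and 0.88 ± 0.37 in Q5A, values not past the adjusted threshold.

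Genes of the chromatin machinery lay close to 0. Of 11 genes for H3.3, its chaperones and transglutaminase 10 were tested, with a median of 0.08. H3f3b and H3f3a, the mouse genes of H3.3, gave -0.03 ± 0.16 and 0.12 ± 0.25, and H3f3b lay at 5.38 to 32.3 CPM in Q5A and 8.55 to 33.6 in controls, and whether reads of the viral H3.3 could enter these rows is not given in the sources used here. Tgm2, transglutaminase 2 itself, gave 0.26 ± 0.23, Hira, which places H3.3 in genes, -0.04 ± 0.19, and Daxx, which places it in heterochromatin, -0.33 ± 0.19. Of 15 tested genes for lysine 4 methylation and its removal 0 had an unadjusted p under 0.05 and the range was -0.21 (Setd1a) to 0.13 (Kmt2b); Wdr5 was below the filter. The 20 tested genes of neurotrophin signalling had a median of 0.01 and 0 at an unadjusted p under 0.05, with Ntrk2, the BDNF receptor, at 0.02 ± 0.16. The 21 GABA and glutamate receptor genes had a median of 0.05, with Gria1, an AMPA receptor subunit, at -0.03 ± 0.16. The 7 tested nuclear and brain noncoding RNAs had a median of -0.04, with Meg3 at -0.21 ± 0.21 and Neat1 at 0.39 ± 0.28.

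Neuropeptide genes of the hypothalamus had wide ranges under both Q5A and control viruses. Of 15 tested, 4 were higher and 11 lower, with a median of -0.09. Penk, the enkephalin precursor, gave -0.70 ± 0.28 (unadjusted p = 0.0156); it ran from 12.4 to 41.3 CPM (median 24.3) in Q5A and from 4.27 to 170.1 (median 27.3) in controls, with exons that overlap A830012C17Rik. The medians were close and the control range was the wider. Oxt, oxytocin, ran from 0 to 117.7 CPM (median 3.16) against 0 to 332.8 (median 12.7) and gave -1.12 ± 0.68. Hcrt, orexin, of the lateral hypothalamus, ran from 0 to 247.5 (median 33.5) against 0 to 237.6 (median 9.20) and gave 0.54 ± 0.62. Pmch, melanin-concentrating hormone, gave 0.15 ± 0.53, and overlaps Parpbp.

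Platr9 and Pomc, which with Srpk2, Bc1 and AC157553.6 make up the 5 rows called over all 6 ZT in an earlier analysis, rested on few libraries. Platr9, whose exons overlap Cga on the other strand, the gene of the shared subunit of pituitary glycoprotein hormones, held 986 reads in Q5A ZT16 cohort 1 replicate 3, 55 in replicate 4 of that group, a median of 0.5 reads over the 14 Q5A libraries and at most 9 reads in any control. Pomc, the precursor of corticotropin and melanocortins, held 334 reads in the same library, against medians of 2.5 reads in Q5A and 4 in controls. Both rows were below the filter. Without it Platr9 was called in the 41-library comparison (log2 difference 4.05, adjusted p = 1.822e-05) and, together with Pomc (3.37) and Gh, growth hormone (2.85), at ZT16. Of the other pituitary genes, Tshb gave 0.09 ± 0.16 and Chga 0.17 ± 0.14, and 0 of 4 tested had an unadjusted p under 0.05. Srpk2, a kinase of splicing factors that overlaps Kmt2e, ran from 74.8 to 246.2 CPM (median 162.7) in Q5A and from 70.3 to 251.8 (median 120.9) in controls (0.31 ± 0.15, unadjusted p = 0.0515). Bc1, a dendritic noncoding RNA, gave 0.30 ± 0.26, and AC157553.6 was below the filter. These 5 were chosen on libraries that include the present ones, so their direction here is no independent evidence.

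Set against each control virus alone, Q5A gave no called gene. Against GFP there were 0 of 12106 genes (388 at an unadjusted p under 0.05, 3.21%; DESeq2 0 and 407) and against H3.3 0 (1136, 9.38%; DESeq2 0 and 1214). With both ZT in 1 fit, the 2 control viruses differed from each other in 0 genes by edgeR (12 against 15 libraries). There were 1793 at an unadjusted p under 0.05 (14.8%), more than in either comparison with Q5A. DESeq2 called 1 row, RP23-372N19.3 (log2 3.16). The study compared the 2 control viruses within each ZT by DESeq2 at an adjusted p under 0.01 and reported differing genes, most of them at ZT12. That comparison within each ZT was not repeated here. The GFP libraries numbered 9, 3 and 0 and the H3.3 libraries 8, 4 and 3 in cohorts 1, 2 and 3, so part of a difference between the control viruses cannot be told apart from cohort. Slc6a3 was higher in Q5A by 2.18 ± 0.83 against GFP and by 2.52 ± 0.78 against H3.3, Ret by 1.12 ± 0.44 and 1.34 ± 0.42, and Th by 0.72 ± 0.53 and 1.41 ± 0.52. Dot1l was lower by -0.25 ± 0.12 and -0.38 ± 0.11. The comparisons with GFP and with H3.3 share the Q5A libraries.

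**Figure D5:**
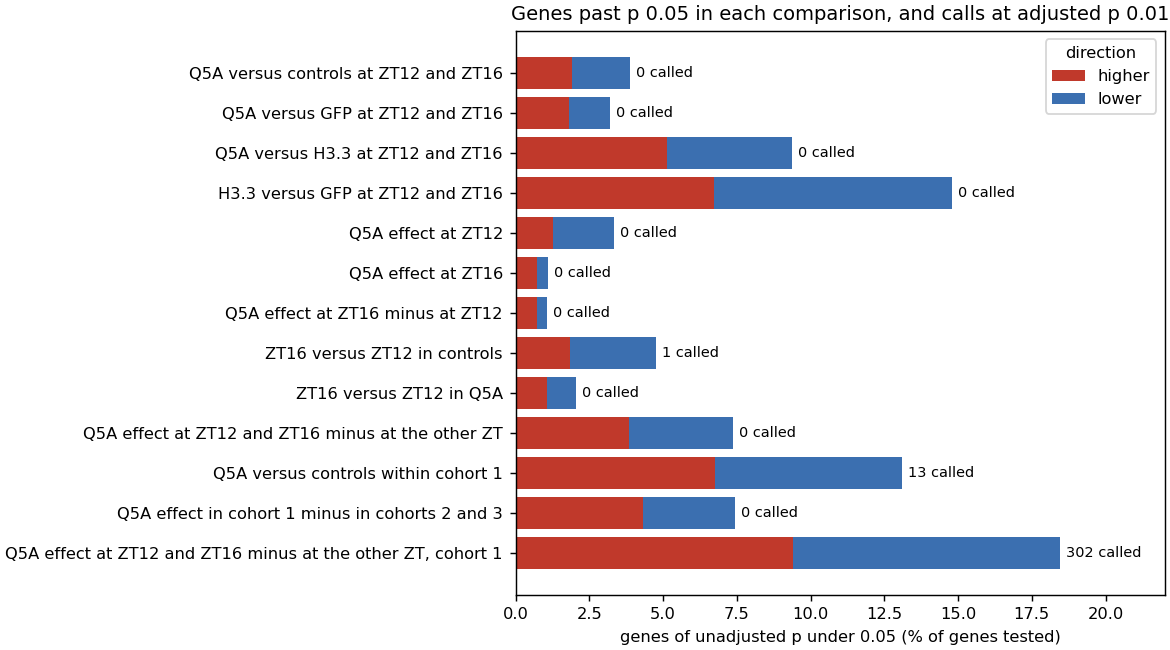
Share of tested genes at an unadjusted p under 0.05 in each comparison (%), split into higher and lower, with the number called at an adjusted p under 0.01 beside each bar. No gene was called in the 41-library comparison of Q5A with controls (3.88% at an unadjusted p under 0.05), and H3.3 against GFP had the largest share of the comparisons over the 41 libraries, 14.8%.

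The effect of Q5A was also taken at each ZT, and no gene passed the test at either one or for the difference between them. At ZT12 0 genes were called (405 at an unadjusted p under 0.05; DESeq2 0 and 414), at ZT16 0 (135; DESeq2 0 and 144), and the difference between the 2 effects gave 0 (131; DESeq2 0 and 128). Slc6a3 was higher by 3.25 ± 0.90 at ZT12 and 1.53 ± 0.87 at ZT16, a difference of -1.72 ± 1.201. At ZT12 the control libraries ran from 0 to 40.7 CPM with 9 of 13 at 0 reads, and at ZT16 from 0 to 91.7 with 6 of 14 at 0. Pter gave 1.34 ± 0.33 at ZT12 and 0.29 ± 0.33 at ZT16, a difference of -1.05 ± 0.48 (unadjusted p = 0.0323). Between ZT16 and ZT12 themselves, controls differed in 1 of 12106 genes (0.00826%), the clone-named row RP23-349B4.25, which rose by 1.17 ± 0.20 on the log2 scale (adjusted p = 0.005351). It ran from 23.2 to 77.4 CPM (median 39.1) at ZT12 and from 60.6 to 196.3 (median 84.6) at ZT16 in controls, and from 33.01 to 105.8 (median 43.7) and 54.6 to 128.9 (median 94.1) in Q5A, where the difference was 0.74 ± 0.28. At 0.05 Pnma1 joined it (0.96 ± 0.19). That call was lost (0 genes) with the replicate number as a block, and likewise without 3 libraries that earlier results had singled out (in cohort 1, Q5A ZT16 replicate 3, H3.3 ZT12 replicate 1 and GFP ZT12 replicate 3). In Q5A 0 genes differed between ZT16 and ZT12 (248 at an unadjusted p under 0.05; DESeq2 0 and 252).

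To ask whether the effect at ZT12 and ZT16 differed from that at ZT0, 4, 8 and 20, the mean effects were contrasted over all libraries. With 110 libraries, after 1 repeated library had been merged, 0 of 13891 genes (0%) were called (1023 at an unadjusted p under 0.05, DESeq2 0 and 1050, lowest adjusted p = 0.213). Slc6a3 was higher by 2.36 ± 0.66 at ZT12 and ZT16 and lower by -0.71 ± 0.46 at the other ZT. At ZT4 all 7 Q5A libraries held 0 to 2 reads of it while 3 of 11 controls held 20 or more, and at ZT20 1 of 6 Q5A and 4 of 11 control libraries did. At ZT8 0 of 6 Q5A and 3 of 13 control libraries held 20 or more, whereas at ZT0 2 of 6 Q5A libraries did, with up to 361 reads, and 1 of 9 controls, with 28. Hdc ran the other way, with -0.77 ± 0.34 at ZT12 and ZT16 and 0.70 ± 0.26 at the other ZT, a difference of -1.47 ± 0.42 (unadjusted p = 0.000729, adjusted p = 0.3062), and Penk gave -0.72 ± 0.26 and 0.52 ± 0.20.

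In cohort 1 alone the same contrast called 302 of 12640 genes (2.39%). For 228 of them the effect of Q5A was higher at ZT12 and ZT16 than at the other ZT. In that fit the effect itself was called for 45 genes at ZT12 and ZT16 and for 106 at the other ZT, so a call can rest on either side of the contrast. Among the 15 genes of smallest p in the contrast were 4 clone-named rows, Cplx1 (1.74 ± 0.25, edgeR adjusted p = 1.223e-05), Slc6a3 (6.32 ± 0.92), Cldn11 (1.56 ± 0.25), Aldh1a1 (3.22 ± 0.52), Mbp (1.66 ± 0.27) and Mag (1.72 ± 0.29). They also held Hcn2, a pacemaker channel (1.11 ± 0.18), Aph1a, a subunit of gamma-secretase (1.66 ± 0.27), and Apod, a lipid carrier of glia (2.07 ± 0.35). For Cplx1 the contrast joins 1.19 at ZT12 and ZT16 with -0.55 at the other ZT, and for Slc6a3 4.18 with -2.13, and the values at the other ZT did not pass the threshold (adjusted p = 0.03072 and 0.02697 by edgeR). In cohorts 2 and 3, 46 of 301 had the same sign (15.3%, against 42.1% of 12590 over all genes), 0 of these had an unadjusted p under 0.05, and 6 with the opposite sign did. The count ran from 144 without Q5A ZT16 cohort 1 replicate 1 to 447 without GFP ZT16 cohort 1 replicate 1.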

How the data were processed

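The deposited files hold whole-number read counts per gene, made by the authors with bcl2fastq, STAR 2.7.11b on GRCm38 and HTSeq 2.0.5 (exons summed by gene name, own-strand setting), with no normalization. From these counts edgeR 4.0.16 in R 4.3.3 tested 12106 genes after filterByExpr (minimum count 10, minimum total 15), with TMM scaling, a quasi-likelihood F test, ZT as covariate and Benjamini-Hochberg adjustment, and genes were called at an adjusted p under 0.01, the study's threshold (the study used DESeq2 1.44.0). Shrinkage of log2 differences used a prior count of 2. Each SE of an edgeR log2 difference was its absolute value divided by the square root of the F statistic. It restates the p-value of that test, is not a separately fitted error and is unreliable for very small differences. DESeq2 1.42.0, size factors, other filters, cohort terms, cohort subsets, a replicate block and leaving out each library were alternatives. Genes were named by rule: up to 15 called genes of smallest p per comparison, the 10 smallest p in each direction over 41 libraries, Hdc, list members with an unadjusted p under 0.05, up to 3 members of each list with the highest mean count, and the earlier calls; other genes were chosen after their values were seen. The libraries, rule and lists were chosen with earlier results of these data known. Rows for reads of no gene stayed out. At ZT12 and ZT16 all libraries of a group differed by more than sampling noise. At the other ZT 1 pair agreed within it and was merged. p-values measure the spread between animals. The fits were tested on simulated data. There were 18 value columns mapped to no sample, which were not used. Promoters came from RefSeq (GRCm38.p6) and gene positions from a GRCm38 annotation. Protein sequences and a genome sequence were not used here. Some genes that the rule names are not reported here.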

Additional observations from a re-analysis of the deposited data

Results flagged for a closer look

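Dixon's test was run within 96 groups of 4 to 10 libraries, for 12 genes and 4 depth measures. It took levels without log scaling and a fixed cutoff per group size, with no correction for the number of groups. Where most libraries of a group held few reads or none, a small value can stand apart. Its results therefore point to single values and do not mark a library as faulty. By this test, 25 values of single libraries stood apart from the rest of their group. For Slc6a3 these were GFP ZT12 cohort 2 replicate 1 (2.48 CPM), GFP ZT16 cohort 2 replicate 1 (91.7 CPM), H3.3 ZT12 cohort 3 replicate 1 (40.69 CPM) and H3.3 ZT16 cohort 2 replicate 2 (38.59 CPM). The same 4 control libraries recurred in part for Th, with 27.29, 76.42 and 34.43 CPM in the first 3, beside 80.51 CPM in Q5A ZT16 cohort 1 replicate 4, and for Ret, with 54.19, 35.21 and 42.76 CPM in the last 3. Hdc stood apart in GFP ZT12 cohort 1 replicate 4 (26.09 CPM) and H3.3 ZT16 cohort 2 replicate 2 (27.64 CPM).

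Cplx1 reached 464.0 CPM in H3.3 ZT12 cohort 3 replicate 1, Cldn11 69.64 CPM in H3.3 ZT16 cohort 2 replicate 1 and Gga2 29.17 CPM in GFP ZT12 cohort 1 replicate 3. Pomc lay at 249.1 CPM in Q5A ZT16 cohort 1 replicate 3 and 15.21 CPM in H3.3 ZT16 cohort 2 replicate 2. Platr9 lay at 735.2 CPM in that Q5A library, 8.464 CPM in H3.3 ZT16 cohort 1 replicate 1 and 2.588 CPM in GFP ZT12 cohort 2 replicate 1. Pomc and Platr9 lay below the filter and their CPM are scaled to the plain library total. Total counts stood apart in GFP ZT16 cohort 1 replicate 5 (1202114) and Q5A ZT16 cohort 3 replicate 1 (3375352), whose top 10 genes held 18.34% of counts, and the share of reads in gene rows in Q5A ZT12 cohort 2 replicate 1 (5.385%).

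In cohort 1 the effect of Q5A at ZT12 and ZT16 differed from that at the other ZT, by the test of the difference itself (edgeR, adjusted p under 0.01), for Slc6a3 (log2 6.315), Ret (2.856), Th (2.604), Cplx1 (1.745), Adamts4 (1.405), Lig3 (0.9315), RP24-388I23.2 (3.673), RP23-234P12.1 (1.807) and RP23-456B9.21 (-2.277). Over all cohorts that test called 0 of 13891 genes (1023 at an unadjusted p under 0.05, DESeq2 0 and 1050).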

How the results depend on the processing

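The 41-library count stayed at 0 without each library in turn and under size factors, cohort terms and DESeq2. At an adjusted p of 0.05, controls between ZT16 and ZT12 gave 2 genes, cohort 1 gave 102 and its contrast with the other ZT 715. DESeq2 gave 1 gene for H3.3 against GFP, 2 for controls between ZT16 and ZT12 and 59 within cohort 1. With no filter on low counts there was 1 gene over 41 libraries, against GFP and against H3.3 (Platr9 each time), 2 for H3.3 against GFP, 3 at ZT16, 2 for Q5A between ZT16 and ZT12, 159 within cohort 1, 103 for cohort 1 minus cohorts 2 and 3, and 649 for cohort 1 against the other ZT. With cohort 1 libraries only the counts were 13 for all controls, 2 against GFP, 11 against H3.3, 1 at ZT12, 1 at ZT16, 2 for controls between ZT16 and ZT12, and 302 against the other ZT. The robust fit gave 4 within cohort 1. Without the 3 libraries singled out earlier controls between ZT16 and ZT12 gave 0 and cohort 1 gave 119. The causes were not tested.

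Within cohort 1, leaving out 1 library gave 2 to 98 genes. By Q5A library the moved counts were 6, 44, 2 and 6 without ZT12 replicates 1, 3, 4 and 5, and 4, 28, 56 and 7 without ZT16 replicates 1 to 4. By control library they were 7, 4 and 31 without GFP ZT12 replicates 1, 2 and 4, 98, 4 and 7 without GFP ZT16 replicates 1, 3 and 4, and 61 and 22 without H3.3 ZT12 replicates 1 and 4. The contrast with the other ZT gave 144 to 447. All 13 genes of cohort 1 kept their direction in 416 values, 122 of them past the threshold no longer.

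With the replicate number as a block, controls between ZT16 and ZT12 gave 0 genes and cohort 1 gave 61. Whether the numbers pair the animals is not given by the labels. Of same-numbered pairs in a cohort, 18 of 34 correlated over 0.1 (r from -0.379 to 0.767, median 0.106). For other numbers of the same cohort it was 41 of 99 (median 0.0397), and for other cohorts 39 of 146 (median -0.0602). Of 38 libraries, 12 correlated best with their own number.

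Of 1239 values of 23 named genes over 41 libraries, 19 changed sign, all in subsets by cohort. In cohort 3 these were Slc6a3 (-1.76), Slc10a4 (-1.06), Aqp4 (-0.61), Ret (-0.51), Bc1 (-0.34), Lpcat1 (-0.31), Cldn11 (-0.05513), a clone-named row (-0.02012), RP23-76M24.3 (0.46), Ttc14 (0.31), Zkscan17 (0.13) and Taf6 (0.02811). In cohort 2 they were that row (-0.73) and Pter (-0.001324), and in cohorts 2 and 3 together that row (-0.66), Slc6a3 (-0.62), Bc1 (-0.07439), Ret (-0.03661) and Slc10a4 (-0.02427). The difference in mean total count between Q5A and controls was 36800 over 41 libraries and -20040 in cohort 1. Low counts limit Hdc, Chrna6, Pomc and Platr9 most.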
